A study of Mus musculus with 40 samples.

Results

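The genes described here handle fatty acids from the blood to the inside of the cell: Lpl, Cd36, Slc27a1, Slc27a4, Acsl1, Fabp4 and Fabp5. They were taken by gene symbol, as the symbols stand in the probe annotation deposited with the arrays. The 7 genes are 7 of 29411 gene symbols and are read by 13 of 40628 probes. All 7 genes had at least 1 probe in every fit, and their levels are given for every diet and time point.

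Lipoprotein lipase (Lpl) is secreted, works at the capillary wall and frees fatty acids from the triglyceride of circulating lipoproteins. The scavenger receptor Cd36 and the transport proteins Slc27a1 and Slc27a4 help fatty acids across membranes, Acsl1 joins them to coenzyme A, and the binding proteins Fabp4 and Fabp5 carry them in the cytosol. In fat tissue Fabp4, Lpl, Cd36 and Acsl1 are strongly expressed by adipocytes, while macrophages are known to express Fabp4, Fabp5, Cd36 and Lpl as well.

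The series followed 5 diet groups of C57BL/6J mice, aged 3 to 4 weeks at the start, with 30 animals in each diet group. LFC mice ate a normal diet with 10% of calories from fat, and HFC mice ate a high-fat, high-sucrose diet with 60% of calories from fat. HF5, HF20 and HF75 mice ate that same high-fat, high-sucrose diet together with 5, 20 or 75 µg of Kal-1, a botanical formulation. RNA labelled as subcutaneous SVCs, a name that the series text ties to infiltrating macrophages, was hybridised to 1-colour Agilent arrays, with 1 array for each diet and time point. The 38 arrays used were 11 LFC, 11 HFC, 6 HF5, 5 HF20 and 5 HF75 arrays. LFC and HFC covered days 1, 6, 10 and 14 and weeks 0, 3, 6, 9, 12, 15 and 18, with weeks counted from day 14. HF5 covered weeks 3 to 18, and HF20 and HF75 covered weeks 3, 6, 9, 12 and 15. A further 2 arrays of week 18 carried conflicting HF20 and HF75 labels and entered no comparison. Each time point of a diet is a single array, so no value at a time point has a replicate error, and the small number of arrays limits how precise the comparisons are.

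A level is the log2 processed signal of a probe minus the log2 of the 75th percentile of its array, so 0 is the 75th percentile. Levels of different probes are on different scales and were not set against each other. The 75th percentile intensity ran from 8.12 to 2171, with a median of 798, and 17.2% to 87.2% of probes lay well above background, with a median of 69.6%. Both extremes of dimness came from the LFC array of week 3, at 8.12 and 17.2%. On that array Fabp4 and Lpl alone, 2 of the 7 genes, were well above background. The other values have no order, and those below the lowest measured level of the array were raised to it. The brightest Acsl1 probe, at 0.95, lay above that level without being well above background. The LFC array of day 14 carried 9104 outlier spots. Rank correlations with the remaining arrays had a median of 0.447 for LFC week 3 and 0.471 for LFC day 14, against 0.832 to 0.941 for the other 36 arrays. LFC ranges below therefore cover only arrays on which the probe was well above background.

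Saturation of the scanner limited the brightest probes. The brighter Fabp4 probe (51_P336833) was saturated on 34 of 38 arrays, including every HFC, HF20 and HF75 array, and its values there are lower bounds. The dimmer Fabp4 probe (52_P564544) was saturated on 7 arrays, the 2 Lpl probes on 9 (51_P259296) and 7 (52_P257812), the brightest Acsl1 probe (51_P496432) on 8 and the Cd36 probe on 3. The other 2 Acsl1 probes and the probes of Fabp5, Slc27a1 and Slc27a4 were saturated on 0 arrays. Levels are given from the probe of each gene with the fewest saturated arrays, a choice made after the values were seen. Counts of called genes use the brightest probe of each gene, as planned, and so do single differences that name no probe.

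**Figure D1:**
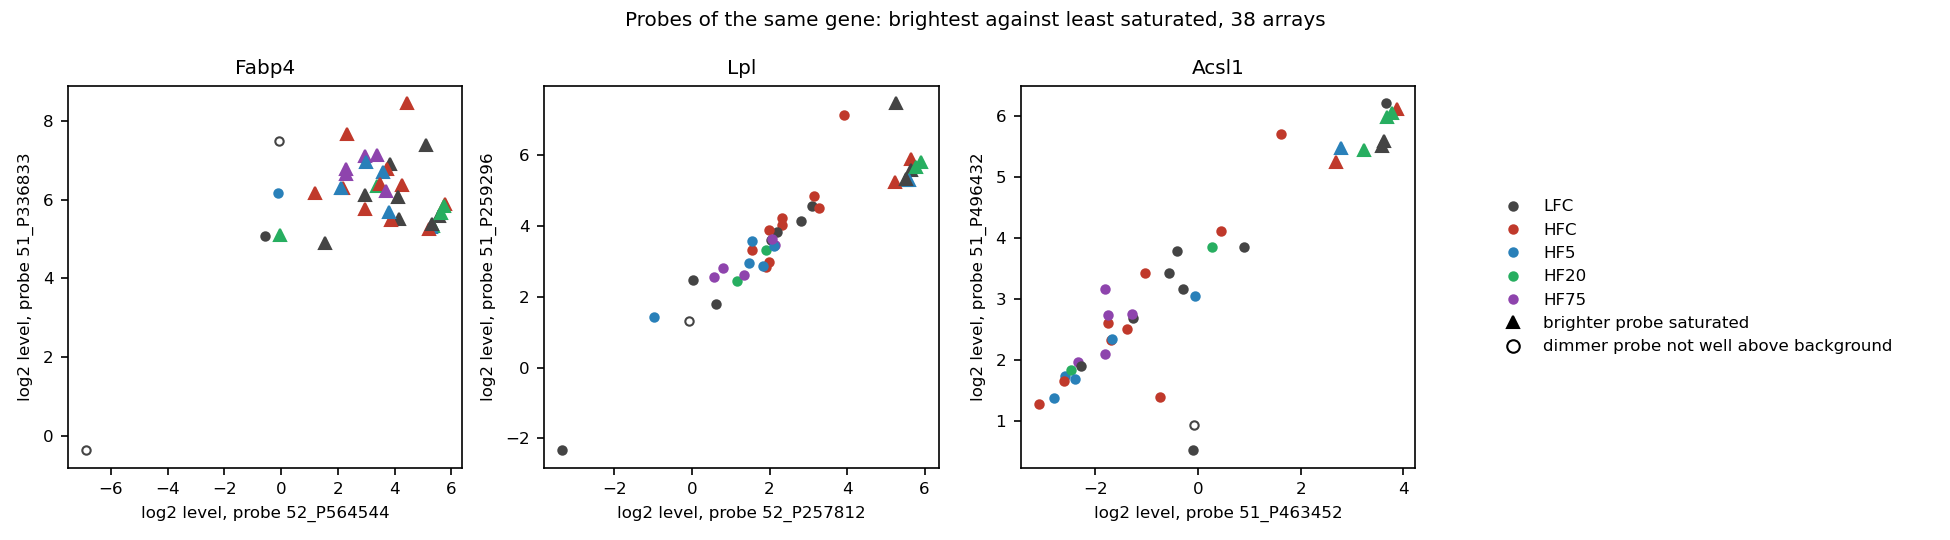
Level of the brighter probe (vertical axis) against the least saturated probe (horizontal axis) of Fabp4, Lpl and Acsl1 on 38 arrays, both as log2 above the array's 75th percentile, with triangles for saturated spots. The brighter Fabp4 probe was saturated on 34 arrays, so its values hardly follow those of the dimmer probe.

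Markers of several cell types were measured on nearly all arrays, so the label was checked against them. All 9 macrophage markers were well above background on 34 of 38 arrays, with a summed log2 level of 2.06 to 6.10, in which the Cd14 probe was the brightest. All 11 adipocyte markers on the array were well above background on 32 arrays, with a summed level of 2.60 to 10.49. The brightest of these probes was that of Cfd, saturated on 16 arrays, and brightness does not rank genes by abundance. All 7 fibroblast markers were well above background on 34 arrays, all 8 endothelial markers on 35 and all 6 T cell markers on 32. The RNA thus held transcripts of adipocytes, fibroblasts and vessels beside those of macrophages, and a level of Lpl, Cd36 or Fabp4 cannot be assigned to any of them. For every gene below, fewer cells of a type and less RNA per cell cannot be told apart.

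Lpl, the lipase outside the cell, varied widely between time points in every diet but HF75. On the least saturated probe the 10 measured LFC arrays ran from −3.35 at week 18 through a median of 2.50 to 5.64 at week 9. The 11 HFC arrays ran from 1.54 through 2.33 to 5.65, and the 6 HF5 arrays from −0.98 through 1.68 to 5.59. The 3 ranges overlapped over most of their length, and the LFC, HFC and HF5 arrays of week 9 were saturated. In HF20 the level was 1.90 at week 3 and 1.15 at week 6, and then 5.51, 5.91 and 5.79 at weeks 9, 12 and 15, each saturated. In HF75 it was 0.81, 0.57, 2.14, 1.33 and 2.05 at weeks 3, 6, 9, 12 and 15, with no saturated spot. The 3 late HF20 arrays lay above every HF75 array, while the arrays of weeks 3 and 6 lay within the HF75 range. Over the 5 weeks that all diets share, the mean was 4.05 ± 2.33 in HF20, 3.49 ± 2.49 in LFC, 2.61 ± 1.50 in HFC, 1.95 ± 2.36 in HF5 and 1.38 ± 0.71 in HF75 (SD, n = 5, but 4 in LFC, whose raised value of week 3 is left out of these means here and for the genes below). The LFC array of week 18 stood alone at the bottom, 2.37 below the next array. On that array Fabp4 and the adipocyte (summed level 2.60), fibroblast (−1.69), endothelial (1.60) and brown fat markers (−1.78) were at their lowest too. Acsl1 (0.90) and Slc27a4 (−0.39) were not.

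Cd36, the receptor that takes up long-chain fatty acids, had the same bright arrays. The 10 measured LFC arrays ran from 0.23 at week 6 through 4.14 to 5.40 at week 9. The 11 HFC arrays ran from 2.17 at week 6 through 4.16 to 5.86 at day 6, and the 6 HF5 arrays from 0.58 through 3.75 to 5.29. The medians of LFC and HFC were 4.14 and 4.16, well inside the spread of either diet. HF20 read 3.71 and 1.17 at weeks 3 and 6 and 5.31, 5.11 and 5.56 at weeks 9, 12 and 15. HF75 read 3.08, 2.30, 2.60, 2.81 and 3.73 at the same weeks. Week 6 was the lowest HF20, HF75, HFC and LFC array alike, and the late HF20 arrays again lay above all HF75 arrays. Matched means were 4.17 ± 1.83 in HF20, 3.84 ± 2.45 in LFC, 3.50 ± 1.77 in HF5, 3.46 ± 1.27 in HFC and 2.91 ± 0.54 in HF75 (SD, n = 5, 4 in LFC), and each differed from the next by less than the larger of their SDs.

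Slc27a1, a transport protein that also activates very long-chain fatty acids, ran from −1.52 through −0.27 to 3.41 over 10 LFC arrays, with the highest at week 12. Over 11 HFC arrays the level ran from −1.64 through −0.85 to 1.67, and over 6 HF5 arrays from −2.96 through −1.15 to 2.32. The ranges overlapped, with the HFC median below the LFC median. In HF20 the level was −1.50, −0.39, 1.50, 2.0 and 0.67 at weeks 3, 6, 9, 12 and 15. In HF75 it was −1.63, −0.89, −1.37, −1.57 and −1.0. All 5 HF75 arrays were thus below the 3 late HF20 arrays and spread little. Matched means were 0.82 ± 2.17 in LFC, 0.46 ± 1.42 in HF20, −0.75 ± 0.99 in HFC, −0.76 ± 2.0 in HF5 and −1.29 ± 0.33 in HF75 (SD, n = 5, 4 in LFC).

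Slc27a4, the related transport protein of the endoplasmic reticulum and plasma membrane, had its lowest arrays in HF75. It had no usable spot on the LFC array of day 14, so its counts rest on 37 arrays. The 9 measured LFC arrays ran from −2.62 through −1.65 to 0.27, the 11 HFC arrays from −2.60 through −2.08 to −1.39, and the 6 HF5 arrays from −2.73 through −2.06 to −0.37. HF20 read −2.34, −0.71, −1.80, −0.70 and −1.77 at weeks 3, 6, 9, 12 and 15. HF75 read −3.46, −3.42, −3.38, −2.32 and −3.35, so 4 of the 5 HF75 arrays were the lowest 4 of all 37 and lay 0.62 below the rest. The fifth, week 12, lay inside the range of the other diets. Matched means were −1.46 ± 0.73 in HF20, −1.55 ± 0.80 in HF5, −1.71 ± 0.66 in LFC, −2.05 ± 0.44 in HFC and −3.19 ± 0.48 in HF75 (SD, n = 5, 4 in LFC). The step from HFC to HF75 was the only step between neighbouring diets, for any of the 7 genes, that exceeded both SDs.

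Acsl1, the synthetase that activates long-chain fatty acids, was split between high and low arrays. On the least saturated probe 9 arrays read 2.69 or more and 29 read 1.62 or less, a gap of 1.07. LFC ran from −2.28 through −0.20 to 3.66 over 10 measured arrays, HFC from −3.10 through −1.02 to 3.88 at day 1 over 11, and HF5 from −2.80 through −2.03 to 2.80 over 6. Each of these diets thus held both high and low arrays. HF20 read −2.48 and 0.28 at weeks 3 and 6 and 3.24, 3.77 and 3.68 at weeks 9, 12 and 15. HF75 read −1.82, −1.81, −1.27, −2.33 and −1.76, with no high array. Matched means were 1.70 ± 2.74 in HF20, 1.16 ± 2.94 in LFC, −1.01 ± 2.40 in HF5, −1.10 ± 2.30 in HFC and −1.80 ± 0.38 in HF75 (SD, n = 5, 4 in LFC), and the SDs of 4 diets exceeded the steps between them.

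Fabp4, the main binding protein of adipocytes, ran on its dimmer probe from −0.58 through 4.14 to 5.56 over 9 measured LFC arrays. HFC ran from 1.19 through 3.72 to 5.76 over 11 arrays and HF5 from −0.12 through 3.30 to 5.28 over 6. The diets overlapped almost fully, and the LFC array of week 18 was 6.30 below the next once raised to its floor. HF20 read 3.40, −0.04, 5.34, 5.74 and 5.63 at weeks 3, 6, 9, 12 and 15, with weeks 9 and 15 saturated. HF75 read 2.30, 2.29, 3.39, 2.95 and 3.68. Fabp5, expressed in macrophages, endothelium and epidermis among others, ran from −4.31 through 0.43 to 3.50 over 10 LFC arrays, from −2.84 through −0.08 to 2.33 over 11 HFC arrays and from −2.68 through −0.50 to 0.67 over 6 HF5 arrays. For Fabp5 HF20 read −0.46, −3.49, 0.45, 1.01 and 0.98, and HF75 read −0.91, −2.10, −1.07, −1.40 and −0.45. Both binding proteins were lowest at week 6 in HFC, HF20 and HF75, and for neither did the matched means of neighbouring diets differ beyond their SDs.

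**Figure D2:**
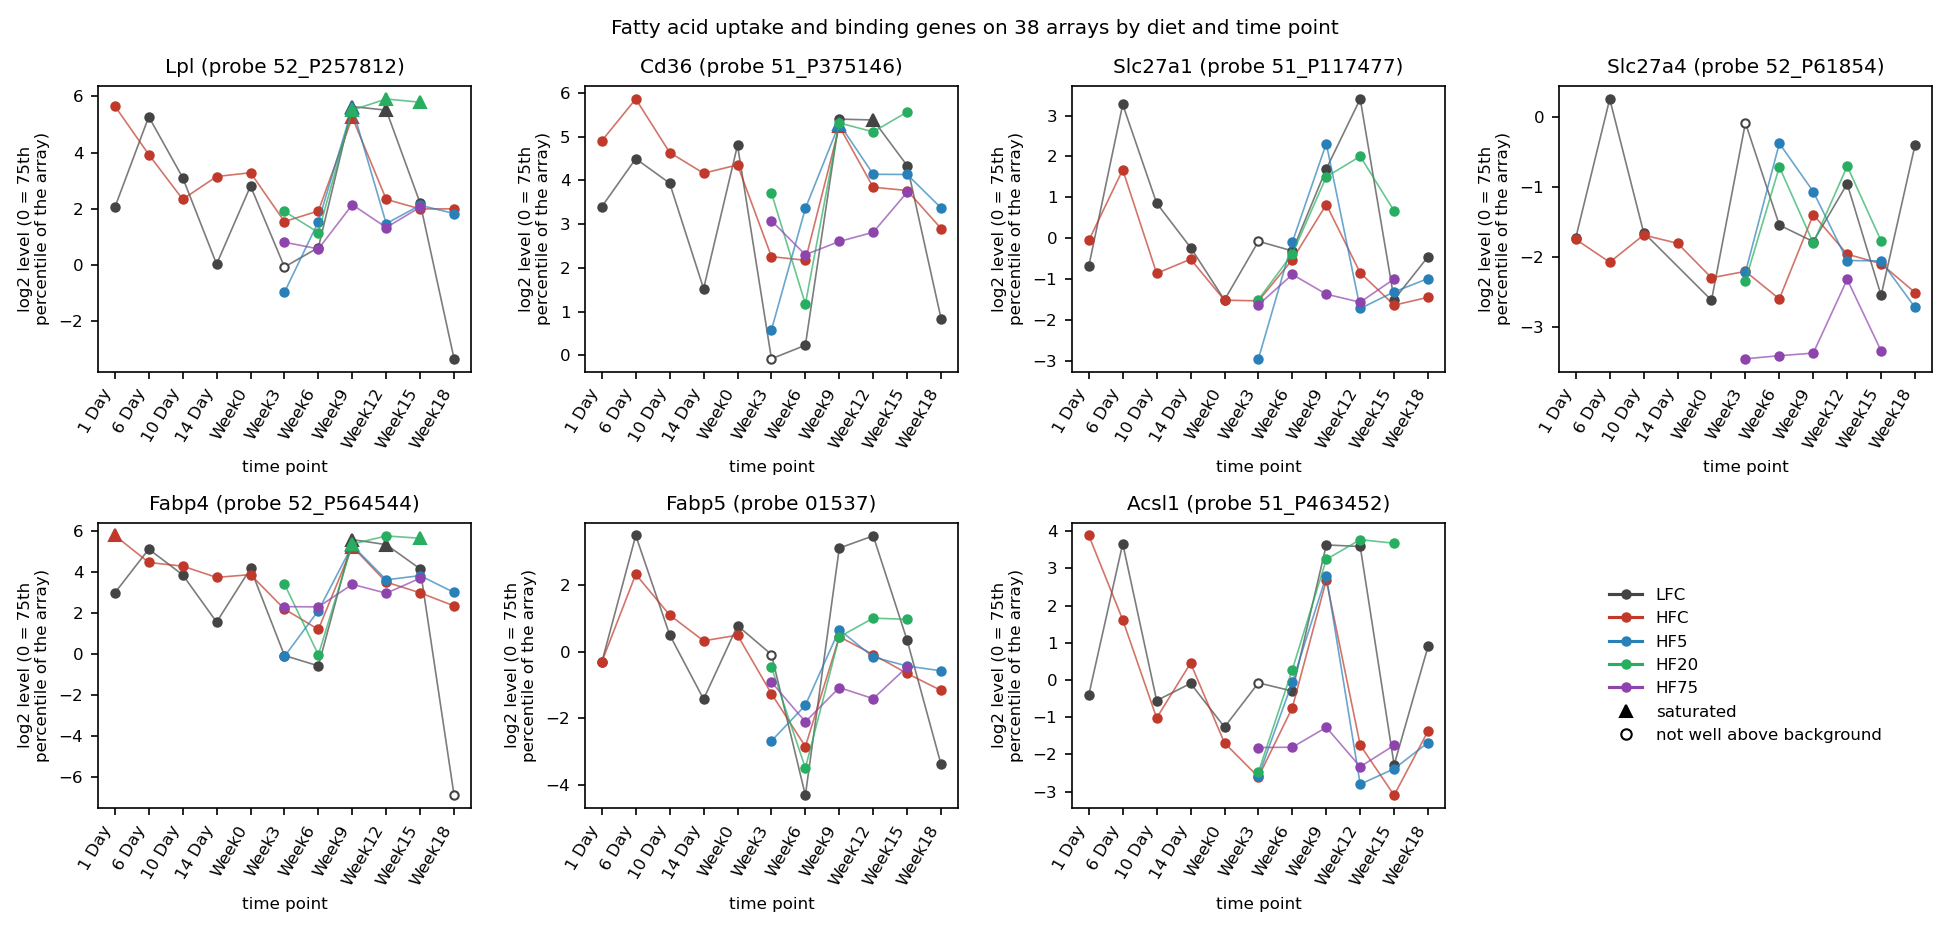
Level of the 7 genes on each array by time point, as log2 above the array's 75th percentile, with 1 panel for the least saturated probe of each gene, diets by colour, triangles for saturated spots and open symbols for values not well above background. Week 9 of LFC, HFC, HF5 and HF20 and weeks 12 and 15 of HF20 are high for Acsl1, Lpl and Cd36, and 4 HF75 arrays are lowest for Slc27a4.

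Several arrays were bright on most of the member probes. Of 10 member probes, the LFC and HFC arrays of day 6, the LFC and HF20 arrays of week 12 and the HF5 array of week 9 were among the highest 10 arrays for 9 each. The LFC and HFC arrays of week 9 and the HF20 array of week 15 were so for 8 each. These counts take Fabp4, Lpl and Acsl1 by 2 probes each. Saturated values, such as most of the brighter Fabp4 probe, have no exact rank. Over 38 arrays Lpl and Fabp4 correlated with Pearson r = 0.886 (rho 0.946, r = 0.879 without the 2 farthest arrays). Cd36 correlated with Fabp4 at r = 0.856 (rho 0.959, 0.848 without the 2) and with Lpl at r = 0.851 (rho 0.910, 0.846 without the 2). Within the 29 arrays low for Acsl1 and the 9 high ones, r was 0.893 and 0.870 for Lpl with Fabp4, 0.792 and 0.256 for Cd36 with Fabp4, and 0.798 and 0.400 for Lpl with Cd36. The 9 high arrays hold all saturated values of the least saturated probes, 7 for Lpl, 7 for Fabp4 and 3 for Cd36. A saturated spot gives its level from the scanner limit and the array's own scale, so saturated probes of an array read nearly alike. The 0.870 and the other values within the high arrays thus give no relation for Lpl, Fabp4 or Cd36, including with Slc27a4 below. The low arrays hold no such value, and r there was 0.792 or more among Lpl, Fabp4 and Cd36. They do hold raised values, which are not exact. Fabp4 was at a floor of −6.88 on LFC week 18. On LFC week 3 Lpl, Fabp4, Cd36, Slc27a1 and Slc27a4 were all set to −0.08. The r within the low arrays, here and for Slc27a4 below, thus rests in part on raised values. It was not computed without these arrays. The r over 38 arrays includes the saturated values. Since Acsl1 itself split the arrays, its relation to Slc27a1 is given on each side of the gap, with r = 0.820 within the 29 low arrays and −0.00244 within the 9 high ones. Slc27a4 gave r = −0.139 (rho 0.171) with Fabp4 and 0.601 (rho 0.705, 0.50 without the 2 farthest) with Slc27a1 over 37 arrays, and with Acsl1 r = 0.538 within 28 low arrays and 0.0931 within the 9 high ones. Within the low and high arrays Slc27a4 and Fabp4 gave r = −0.514 and −0.498, and Slc27a4 and Slc27a1 0.427 and 0.748. These 7 are of 21 correlations computed between the genes. Without LFC week 3 and LFC day 14, r was 0.882 for Lpl with Fabp4 and 0.860 for Cd36 with Fabp4. The arrays share slides and scan days, and with at most 5 arrays on any of 15 scan days no value within a scan day could be given.

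The summed level of the adipocyte markers moved with several of the genes. It correlated with Lpl at r = 0.865 (rho 0.834, 0.818 without the 2 farthest arrays), with Fabp4 at 0.826 (rho 0.816), with Cd36 at 0.761 (rho 0.766) and with Fabp5 at 0.760 (rho 0.723), over 38 arrays. For Slc27a1 r was 0.634 (rho 0.525, and 0.567 without the 2 farthest arrays), and for Slc27a4 it was 0.0379 over 37. Within the 29 arrays low for Acsl1, r was 0.773 for Lpl, 0.752 for Fabp4, 0.666 for Fabp5, 0.651 for Cd36, 0.265 for Slc27a1, 0.0687 for Acsl1 and, over 28, −0.441 for Slc27a4. Within the 9 high arrays, r was −0.153 for Lpl, −0.190 for Fabp4, 0.491 for Fabp5, −0.798 for Cd36, 0.431 for Slc27a1, 0.511 for Acsl1 and 0.781 for Slc27a4. For Lpl, Fabp4 and Cd36 r was thus positive among the low arrays. The high arrays hold all their saturated values, so r there gives no direction, here or for the endothelial markers below. For the endothelial markers r over 38 arrays was smaller, with 0.321 (rho 0.0879, 0.135 without the 2 farthest) for Lpl, 0.534 (rho 0.138, 0.335 without the 2) for Fabp4 and 0.455 (rho 0.203, 0.485 without the 2) for Cd36. Within the 29 low arrays it was 0.822 for Lpl, 0.785 for Fabp4, 0.719 for Cd36 and 0.511 for Fabp5, and within the 9 high ones −0.426, −0.176, −0.661 and −0.294. Lpl, Fabp4 and Cd36 were thus closer to the adipocyte markers over all arrays but not among the low ones. The low arrays include LFC week 18, the lowest of all for Lpl, Fabp4 and both marker lists (endothelial 1.60, adipocyte 2.60). They also include the raised values of LFC week 3. Within the low arrays r was not computed without these arrays, so the order of the marker lists there may rest on them. With the summed macrophage markers r ran from −0.288 for Fabp5 to −0.0376 for Slc27a4 among the genes other than Acsl1. For Acsl1 it was −0.318, with −0.105 within the low arrays and −0.621 within the high ones. Among the low arrays it ran from −0.271 for Fabp5 to 0.0927 for Slc27a4. Without LFC week 3 and LFC day 14 it was −0.377 for Lpl and −0.344 for Cd36, against −0.214 and −0.122 over all arrays. The part of adipocyte or endothelial RNA in any comparison of diets was not tested.

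**Figure D3:**
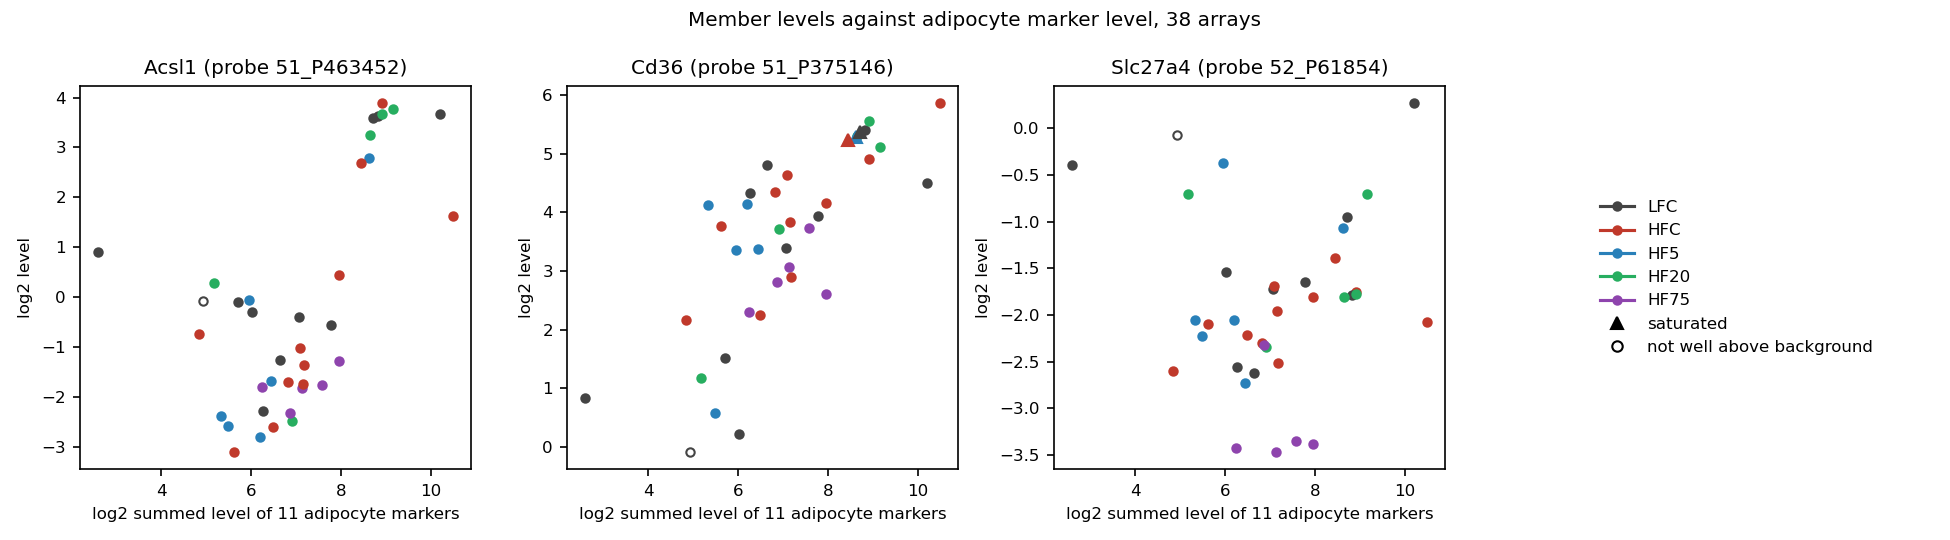
Level of Acsl1, Cd36 and Slc27a4 (log2 above the array's 75th percentile) against the log2 summed level of 11 adipocyte markers, with 1 point for each array coloured by diet. Cd36 climbs with the markers (r = 0.761), Acsl1 splits into 9 high and 29 low arrays, and Slc27a4 gives r = 0.0379 over all its arrays.

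Whether the high-fat, high-sucrose diet alone moved these genes is the question of HFC against LFC, paired by time point. The paired means were lower for Slc27a1 and Slc27a4 and higher for Lpl, Cd36 and Fabp4 in HFC. Slc27a1 differed by −0.99 (SE 0.40) and was higher in HFC in 1 of 11 pairs, with limma adjusted p = 0.941. For Slc27a1, Slc27a4, Fabp5 and the least saturated Acsl1 probe, the LFC value of week 3 was raised and lay above HFC. That pair therefore has no known sign for them. Without it Slc27a1 differed by −0.95, higher in 1 of 10 pairs. Fabp5 differed by −0.35 (SE 0.51), higher in 5 of 11 pairs, and by −0.26 without week 3. Cd36 differed by 0.89 (SE 0.41) and was higher in 7 of 11 pairs, and the brighter Lpl probe by 1.01 (SE 0.52), also in 7 of 11. The dimmer Lpl probe differed by 0.87, higher in 6 of 11. The week 18 pair contributed 5.33 to the brighter Lpl probe, which differed by 0.58 without it, and the dimmer by 0.42. For Fabp4 the dimmer probe gave 1.31 (SE 0.80), which rests largely on week 18, where the LFC value was a floor, and the mean of the other 10 pairs was 0.51. The least saturated Acsl1 probe gave −0.95 (SE 0.63), higher in 2 of 11 pairs, and −0.79 without week 3. The brightest gave −0.11. Slc27a4 differed by −0.76 (SE 0.38), higher in 3 of 10 pairs, but by −0.06 with array weights and by −0.60 over the 9 pairs without week 3. Its dimmer probe was not well above background on 3 LFC and 3 HFC arrays and gives no exact difference. Slc27a1 was lower in nearly all of the 10 pairs with a known sign. Its widest gap was −4.26 at week 12, and its mean was −0.67 without that week. The 7 pairs with higher Cd36 differed by 0.70 to 2.64. Limma called 0 of 7 genes, where 0% of 29215 probes were called. At an unadjusted p under 0.05 it gave 2 of the 7 genes and 813 probes, and 0 of 7 were called without the time point pairing too. Without day 14 and week 3, the pairs with the doubtful LFC arrays, Slc27a1 differed by −1.02 and Cd36 by 0.54, and 0 genes were called. Within the 4 pairs that shared a slide Slc27a1 differed by −0.98, against −1.0 in the other 7, and in the 10 pairs scanned on the same day by −1.15, higher in 0. The first and last of these values include the week 3 pair, whose sign is not known. The median over the 7 genes was −0.11 beside −0.08 over all probes. Of the other genes of the pathway, 0 of 42 were called, and of the marker genes 0 of 79. Beside the higher Lpl, Cd36 and Fabp4 means, the median difference was 1.27 for the fibroblast markers (7 of 7 positive), 1.04 for the endothelial markers (8 of 8), 1.35 for the immediate-early genes (9 of 9) and 0.63 for the adipocyte markers (8 of 11). Epidermis markers gave −1.82 (0 of 5, with 2 at an unadjusted p under 0.05) and B cell markers −0.56 (0 of 5). Their part in the values of these genes was not tested.

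The lowest Kal-1 dose was compared with HFC over 6 weeks, using the same HFC arrays as the other doses. On the least saturated probes HF5 differed from HFC by between −0.58, for Lpl, and 0.38, for Slc27a4. Both ends came largely from a single pair. Slc27a4 differed by 2.23 at week 6 and by 0.01 without that week, and by −0.09 in the 3 pairs that shared a slide. Lpl differed by −2.52 at week 3 and by −0.19 over the other 5 pairs. Cd36 differed by 0.12 and Fabp5 by 0.13, both far inside the spread between pairs. Cd36 was higher in 5 of 6 pairs. In the pairs that shared a slide Cd36 differed by 0.38 and in the other 3 by −0.14, which include −1.67 at week 3. Limma called 0 of 7 genes, with 0% of 29200 probes called. At an unadjusted p under 0.05 it gave 0 of the 7 genes and 1520 probes, and 0 without the time point pairing. The genes' median was 0.12 beside 0.01 over all probes, and 0 of 41 other pathway genes and 0 of 81 marker genes were called. The epidermis markers had a median difference of 2.60 (6 of 6 positive). Immediate-early genes gave −0.59 (0 of 9), endothelial markers −0.54 (0 of 8) and fibroblast markers −0.51 (0 of 7). Macrophage markers gave −0.40 (2 of 9, with 3 at an unadjusted p under 0.05). The part of these lists in the gene values was not tested.

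At the 20 µg dose all 7 genes had higher means than in HFC on the least saturated probes, and 6 of 7 on the brightest. For Acsl1 the HFC arrays of the same weeks read −2.61, −0.74, 2.69, −1.75 and −3.10 on the least saturated probe, below the HF20 array in each week. The gap was 5.52 and 6.78 at weeks 12 and 15 and 1.02 or less at the other 3 weeks. The difference was 2.80 (SE 1.11, limma adjusted p = 0.401) on that probe and 2.19 (SE 0.73, adjusted p = 0.401) on the brightest. The least saturated probe was higher in 5 of 5 pairs, while the brightest was saturated on 3 HF20 arrays and 1 HFC array, on both sides at week 9, so its value is not exact. For Slc27a1 HFC read −1.54, −0.53, 0.82, −0.85 and −1.64, and the difference was 1.20 (SE 0.49, adjusted p = 0.401), again higher in 5 of 5. Both genes were higher with Kal-1 in every pair on these probes, and Acsl1 in 4 of 5 on its remaining probe, but by unequal amounts and without passing the test. The brighter Lpl probe differed by 0.65 and the dimmer by 1.45, each with 3 HF20 arrays and 1 HFC array saturated, so that at weeks 12 and 15 the gap is understated. Without week 12 the 2 probes differed by 0.36 and 0.91, and without week 15 by 0.365 and 0.86. Slc27a4 differed by 0.59 on its brighter probe, higher in 3 of 5 pairs, and by 0.26 without week 6. On the dimmer probe it differed by 0.86 (SE 0.27, limma adjusted p = 0.401), higher in 5 of 5 pairs. That probe was not well above background on 3 of the 11 HFC arrays of all time points, so its difference may not be exact. Cd36 differed by 0.72, with 1.46, 1.27 and 1.79 at weeks 3, 12 and 15 and −1.0 at week 6, and Fabp5 by 0.57, while the brighter Fabp4 probe was saturated on both sides and gives no fold. The dimmer Fabp4 probe differed by 1.00 (SE 0.59, adjusted p = 0.438), higher in 4 of 5 pairs. Limma called 0 of 7 genes, where 0% of 30831 probes were called. At an unadjusted p under 0.05 it gave 2 of the 7 genes and 3675 probes, and 0 genes were called without the time point pairing. In the 4 pairs scanned on the same day the brightest Acsl1 probe differed by 2.69 and Slc27a1 by 1.50. The median over the 7 genes was 0.65 on the brightest probes and 1.00, the value of Fabp4, on the least saturated, beside 0.08 over all probes. HF20 adipocyte markers read 6.90, 5.16, 8.64, 9.15 and 8.90 in the order of the weeks, high on the same arrays as Acsl1, against 6.48, 4.83, 8.44, 7.15 and 5.63 in HFC. Their median difference from HFC was 1.73, positive for 11 of 11, with 5 at an unadjusted p under 0.05, and that of the immediate-early genes was −2.67, with 8 of 9. The median was −1.81 for the T cell markers (1 of 6 positive), −1.05 for the lipid-associated macrophage markers (0 of 6), −0.69 for the endothelial markers (0 of 8) and −0.48 for the macrophage markers (0 of 9). None of these genes passed the adjusted test, and their part in the Acsl1 and Slc27a1 values was not tested. Of all lists, 0 of 42 pathway genes and 0 of 78 marker genes were called.

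The 75 µg dose had the lowest Slc27a4 levels. HFC read −2.21, −2.60, −1.39, −1.96 and −2.10 for Slc27a4 at weeks 3, 6, 9, 12 and 15, above HF75 in each week. The groups overlapped only through the HF75 array of week 12. The difference was −1.13 (SE 0.29, 95% interval −1.82 to −0.44), lower in 5 of 5 pairs, with limma adjusted p = 0.152. The dimmer Slc27a4 probe was lower in 4 of 5 pairs, but not well above background on 3 of the 5 HF75 arrays, and gives no exact difference. Lpl was lower in 5 of 5 pairs on its brighter probe, with a difference of −0.84 (SE 0.32, adjusted p = 0.276), and in 4 of 5 on the dimmer, with −1.23. The HFC array of week 9 was saturated for Lpl, so that pair's difference is understated. At week 9 the HFC array has WS in its title, a mark described further on, and the HF75 array has not. Without week 9 Slc27a4 differed by −0.92 and the brighter and dimmer Lpl probes by −0.61 and −0.76. Limma called 0 of 7 genes, where 1.02% of 28910 probes were called. These were 236 probes higher and 59 lower in HF75. At an unadjusted p under 0.05 limma gave 4221 probes and 3 of the 7 genes, of which Fabp4 counts by its brighter probe, saturated on both sides and without a fold. Of the called probes 80.0% were higher, 96.7% with normexp and 57.9% with array weights. The number of called probes was 0, 7, 200, 93 and 35 without week 3, 6, 9, 12 and 15, and 1453 with array weights, under which Slc27a4 passed (−1.12, adjusted p = 0.0302, range over the alternatives 0.0302 to 0.970). Without the time point pairing 0 genes and 0 probes were called. In the 2 pairs scanned on the same day Slc27a4 differed by −0.81. The median over the genes was −0.55 beside −0.01 over all probes. Of 79 marker genes only Dpt, a matrix protein of fibroblasts, passed, with −2.43 (SE 0.38, adjusted p = 0.0397). Beside the lower Slc27a4 and Lpl means, the macrophage markers had a median difference of −0.96, positive for 1 of 9, with 4 at an unadjusted p under 0.05. Their summed level was 3.38, 4.52, 3.56, 3.58 and 4.48 in HF75 and 3.95, 6.10, 4.59, 4.48 and 4.70 in HFC. The fibroblast markers had a median of −0.83, with 5 of 7 at an unadjusted p under 0.05. Their part in the Slc27a4 and Lpl values was not tested.

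**Figure D4:**
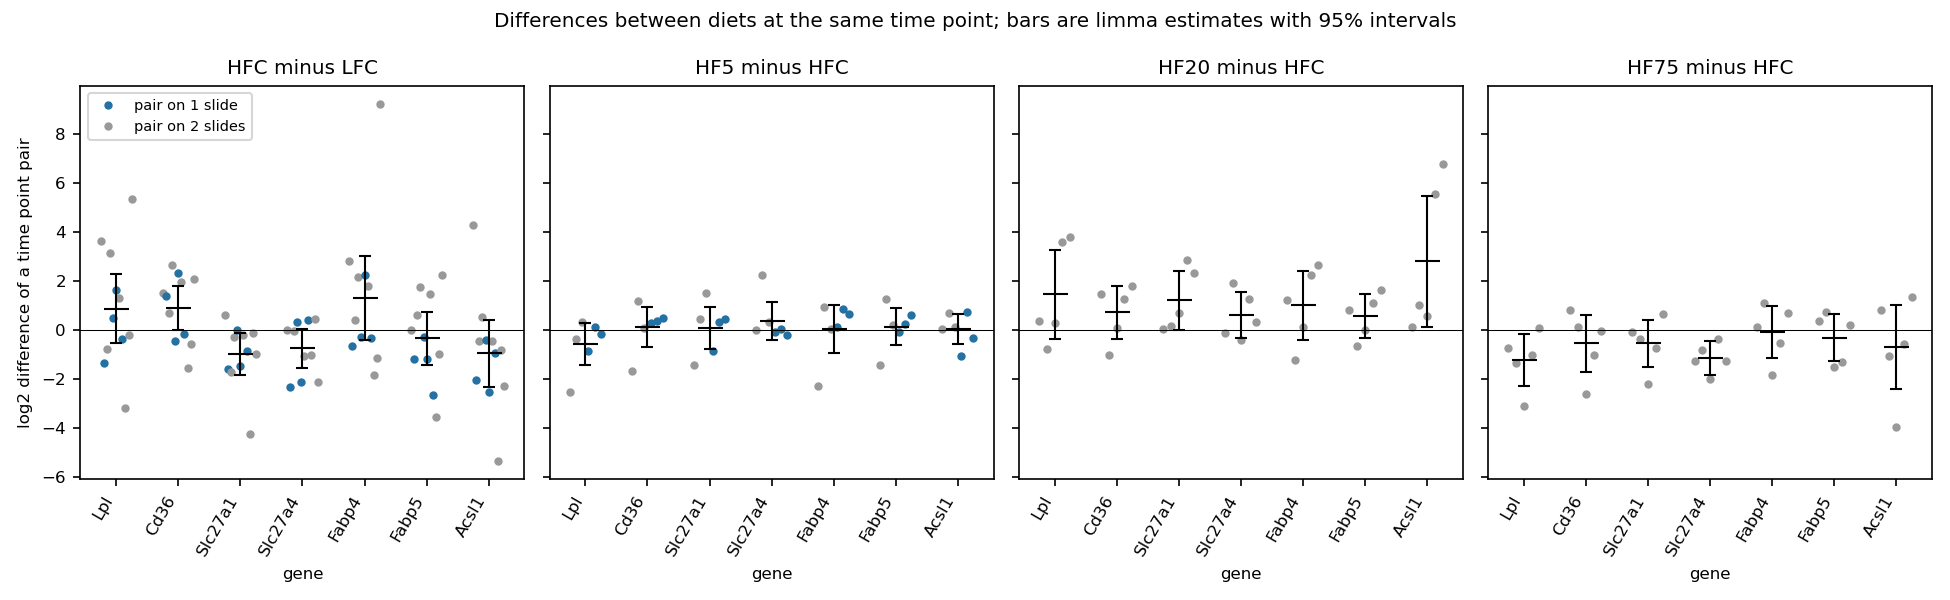
Difference of each time point pair (points, log2) for the least saturated probe of the 7 genes in HFC against LFC and in HF5, HF20 and HF75 against HFC, with blue for pairs on 1 slide, grey for pairs on 2 slides, and bars for the limma estimate with its 95% interval. Acsl1 and Slc27a1 of HF20 lie above 0 and Slc27a4 of HF75 below 0 in 5 of 5 pairs.

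The 3 Kal-1 comparisons share their HFC arrays, so their values stand side by side only. At 5, 20 and 75 µg Slc27a4 differed from HFC by 0.38, 0.59 and −1.13. The dimmer Lpl probe differed by −0.58, 1.45 and −1.23, each with the single-pair limits given above. The second of these was 0.86 without week 15 and 0.91 without week 12. The least saturated Acsl1 probe differed by 0.03, 2.80 (1.81 without week 15) and −0.69. The last value came with −3.96 at week 9, where the WS mark differs between the arrays, and the other 4 pairs averaged 0.12, while the brightest Acsl1 probe gave 0.11, so Acsl1 had no settled direction at 75 µg. None of the 3 genes was ordered by dose, and differences between doses were not tested. No HF20 or HF75 array shared a slide with the HFC array of its week, so values within a slide could not be given for these doses.

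Time on diet was examined in LFC and HFC, with 12 arrays of weeks 3 to 18 against 10 of days 1 to 14 and week 0. Lpl differed by −1.74 (SE 0.76, limma adjusted p = 1.00) on its brighter probe and −1.03 on the dimmer, and the dimmer Fabp4 probe by −1.89 (SE 1.06). Slc27a4 was at −0.01, with no direction to read, and the other 6 genes had negative values, with a median over the 7 of −0.86 beside −0.01 over all probes. Slc27a1 and Slc27a4 turned positive in 2 and 5 of 25 alternatives. The day 6 arrays of both diets and the HFC array of day 1 were bright for most of these genes, and the day 6 titles begin with a code found on no other array, which the labels leave unexplained. The LFC array of week 18 was the lowest for Lpl and Fabp4. Its value for the dimmer Fabp4 probe was a floor, so the −1.89 rests in part on it and is not exact. The LFC array of week 3 was raised too, for the dimmer Fabp4 and Lpl probes, Cd36, Fabp5, Slc27a1 and Slc27a4. It was also raised for the least saturated Acsl1 probe. The late means of these probes are therefore not exact. Beside the lower means, the adipocyte markers had a median difference of −1.80, positive for 1 of 11, with 5 at an unadjusted p under 0.05, and the endothelial markers −1.09, positive for 0 of 8. Brown fat markers gave −1.46 (0 of 5) and epidermis markers −1.32 (0 of 6). Macrophage markers went the other way, at 0.52 (7 of 9 positive), as did the lipid-associated macrophage markers, at 1.06 (5 of 6). Their part in the values was not tested. Limma called 0 of 7 genes, where 0.00330% of 30259 probes were called, and 1 of the genes and 1261 probes had an unadjusted p under 0.05. The only called probe read an immunoglobulin heavy chain transcript, Igh, with 3.69 (SE 0.58, adjusted p = 0.0486), and is named after its value was seen. No probe was called with slide or scan day as a random block, and 173 were with array weights. Whether the HFC effect itself differed between late and early times was tested on the pair differences. The brightest Acsl1 probe gave −2.05 (SE 0.89, limma adjusted p = 0.814) and the least saturated −2.44 (SE 1.13, adjusted p = 0.814). Over the alternatives Acsl1 ranged from −2.57 to −0.98. Limma called 0 of 7 genes, where 0% of 29215 probes were called. At an unadjusted p under 0.05 it gave 1 of the genes and 1244 probes. The median change in effect was 3.88 for the T cell markers (6 of 6 positive, 5 at an unadjusted p under 0.05), 3.49 for the B cell (5 of 5), 2.12 for the fibroblast (7 of 7), 1.84 for the immediate-early (9 of 9) and 0.93 for the macrophage list (9 of 9), and −0.30 for the adipocyte markers (5 of 11). It was −2.04 for the brown fat markers (0 of 4) and −1.13 for the regulators of these genes (0 of 6). Their part in the Acsl1 value was not tested. With another background correction, normexp, Acsl1 passed at −2.57 (adjusted p = 0.0497) while 98.3% of 5351 called probes were higher and the median of all probes was 0.74, against −0.49 as planned. The other pathway genes gave 0 of 43 over time and 0 of 42 for the change in effect, and the marker genes 0 of 82 and 0 of 79.

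At week 9 the LFC, HFC, HF5 and HF20 arrays have WS in their titles, a mark the labels leave unexplained. These 4 were compared with the 8 arrays of the same diets at weeks 6 and 15. Slc27a1 read 1.70, 0.82, 2.32 and 1.50 on the WS arrays of LFC, HFC, HF5 and HF20. At week 6 it read −0.31, −0.53, −0.10 and −0.39, and at week 15 −1.51, −1.64, −1.32 and 0.67. Every WS array lay above all 8 others, of which HF20 at week 15 was the nearest. Slc27a1 rose by 2.22 (SE 0.42, limma adjusted p = 0.0385). Acsl1 read 3.63, 2.69, 2.80 and 3.24 on the WS arrays on its least saturated probe, −0.30, −0.74, −0.06 and 0.28 at week 6, and −2.28, −3.10, −2.39 and 3.68 at week 15. All WS arrays were high, and so was HF20 at week 15. The difference was 3.70 (SE 0.88, adjusted p = 0.0437).

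The brightest Acsl1 probe, both Lpl probes and the dimmer Fabp4 probe were saturated on all 4 WS arrays and on 1 of the other 8, so their folds have neither a value nor a bound. The brightest Acsl1 probe was higher with adjusted p = 0.0423. Lpl was higher with adjusted p = 0.0797 on its brighter probe and 0.0428 on the dimmer, so its call depended on the probe. Limma called 2 of 7 genes, Slc27a1 and Acsl1, where 7.10% of 31346 probes were called, and 3 with the least saturated probes. With slide as a random block 0 genes and 0 probes were called. The dimmer Fabp4 probe gave adjusted p = 0.122. Cd36, saturated on 2 WS arrays, differed by 2.22 (SE 0.92, adjusted p = 0.147) and Fabp5 by 2.67 (SE 1.09, adjusted p = 0.142). Slc27a4 differed by 0.20 (adjusted p = 0.759), less than its spread within either side. The median over the genes was 2.22 beside 0.02 over all probes.

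These calls for Slc27a1 and Acsl1 were fragile. With slide as a random block limma called 0 genes, with Slc27a1 at 2.13 and the brightest Acsl1 probe at 2.52 (adjusted p = 0.277). That probe was saturated on all 4 WS arrays and read 2.64 as planned. Neither value is a fold to set against the 3.70 of the least saturated probe. Without LFC, HFC or HF5, or without week 6, 0 genes were called, with adjusted p for Slc27a1 of 0.199, 0.236, 0.234 and 0.168. Without week 15 limma called 5 of 7 genes, among 8190 probes, and without HF20 it called 3, among 5992. The WS arrays were scanned on a single day that held none of the other 8, so WS and scan day cannot be told apart.

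Other genes moved on the WS arrays together with Slc27a1 and Acsl1, although with slide as a random block none of these calls remained and 0 probes were called. Of 43 other pathway genes 5 rose and 1 fell. Among 12 partners of lipoprotein lipase, the inhibitor Angptl8 rose by 4.46 and the receptor Vldlr by 1.55, while the endothelial lipase Lipg fell by 2.67. The lowest WS value of Lipg, −7.85, was at the floor of its array, so this fall is not exact. The caveolar protein Cav2 rose by 2.15 as 1 of 8 relatives and partners of Cd36, and the regulators Cebpa and Nr1h3 rose by 3.76 and 1.91 as 2 of 7. None of the 8 other binding proteins, 4 other transport proteins and 4 other acyl-CoA synthetases tested passed. Adipocyte markers rose in 9 of 11 cases, such as Lep by 6.36, Lipe by 4.17 and Retn at least 78.3-fold (adjusted p = 0.0393), the mean of 4 saturated values against that of the other arrays. With the slide block 0 of the 11 were called. Their summed level was 8.44 to 8.83 on the WS arrays and 4.83 to 8.90 on the others. All 9 immediate-early genes fell, such as Fos by 6.11, Fosb by 5.22 and Zfp36 by 3.89, with summed levels of 4.09 to 7.12 against 6.41 to 8.99. Macrophage markers had summed levels of 3.96 to 4.59 against 3.98 to 6.10, and 1 of 9, Cd14, fell by 2.99.

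Of the remaining marker lists, 2 of 6 lipid-associated macrophage markers fell (Spp1 by 3.47 and Cd9 by 1.92). Vwf fell by 2.07 among 8 endothelial, Pdgfra by 1.31 among 7 fibroblast and Krt14 by 4.48 among 6 epidermis markers, and Cidea, saturated on 2 WS arrays, rose by 5.02 among 5 brown fat markers. None of the 6 T cell, 4 B cell, 6 muscle and 3 erythroid markers passed. With slide as a random block no probe was called, so these counts carry the same limit as those of Slc27a1 and Acsl1. The part of adipocyte RNA or of the handling of the tissue in the Slc27a1 and Acsl1 values was not tested.

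For each gene, the 3 most similar patterns over the arrays were sought among 20154 genes, by Pearson r of the levels. Cd36 was closest to Pparg, the nuclear receptor of adipocyte differentiation (r = 0.930, and 0.931 without the 2 farthest arrays), and then to LOC547041 and Adfp. The brighter Lpl probe was closest to Adipoq, the gene of adiponectin (r = 0.925, 0.879 without the 2), Thrsp and Apol6, and the least saturated to Amy1 (r = 0.947, 0.927 without the 2), LOC100047573 and Rbp4. The brightest Acsl1 probe was closest to Hibch (r = 0.954, 0.948 without the 2), Cpt2 and Gbe1, and the least saturated to Agpat2 (r = 0.962, 0.955 without the 2), Clybl and Lman2l. For both genes the closest patterns thus differed between probes. These values for Acsl1 span both sides of its gap. Slc27a1 was closest to Pex19 (r = 0.918), Fah and Agpat2, and Slc27a4 to Lrrc14 (r = 0.873 over 37 arrays), Nlrx1 and Hgs. The dimmer Fabp4 probe was closest to Ebf3 (r = 0.947), Timp4 and Dlc1, and the brighter, saturated on most arrays, to Ptrf (r = 0.945, 0.791 without the 2), Mfge8 and Col1a2. Fabp5 was closest to Gm6166 (r = 0.966), Gm13998 and Gm6100, which RefSeq lists as pseudogenes. The array annotation describes the probes of Gm6166 and Gm6100 as similar to Fabp5 and those of Gm13998 as a lipid-binding protein. The probes of those 3 share no run longer than 6 bases with the 60 bases of the Fabp5 probe. Probes can lie in different parts of a transcript, so this comparison cannot show whether they read Fabp5 RNA. That was not tested.

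By RefSeq annotation Fabp4 and Fabp5 are both on chromosome 3, Fabp4 next to Fabp9 and Fabp12 and Fabp5 next to Pag1 and Pmp2. Fabp9, Fabp12 and Pmp2 belong to the same family of binding proteins. Lpl, Slc27a1 and Acsl1 are on chromosome 8, Cd36 on chromosome 5 and Slc27a4 on chromosome 2. RefSeq promoter windows of 300 bases (GRCm38.p6) matched 4 of the 7 genes, with 7 windows. They were searched on both strands for AGGTCANAGGTCA, the direct repeat bound by PPAR and RXR dimers, because Cd36 followed Pparg most closely. With up to 2 mismatches 1 of the 7 windows held it, the Cd36 promoter at chr5:17835847-17836146 on the minus strand, which is therefore shown.
Cd36 promoter: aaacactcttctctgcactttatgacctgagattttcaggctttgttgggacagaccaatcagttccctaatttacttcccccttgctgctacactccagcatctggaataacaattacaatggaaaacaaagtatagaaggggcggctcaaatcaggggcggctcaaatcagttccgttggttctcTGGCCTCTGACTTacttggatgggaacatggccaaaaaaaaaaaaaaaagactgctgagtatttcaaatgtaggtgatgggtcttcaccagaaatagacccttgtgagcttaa
The capitals mark bases 188 to 200, which match the repeat on the reverse strand with 2 mismatches. Of 32851 promoters of the same length, 1268 (3.86%) hold such a match, and 16.3% hold the shorter element AGGTCA, which the Cd36 window has from base 23 on the reverse strand, outside the capitals. The match is a description of these letters only.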

How the data were processed

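Per the file headers, Agilent Feature Extraction 10.5.1.1 gave the deposited spot intensities, background-corrected as processed signals; the submitters' processing notes name version 9.1. The deposited annotation table also holds 40 columns of log2 fold changes that the authors computed relative to the time-matched LFC array; these were not used, and only its gene symbols were read. Control spots and outlier spots were left out, spots of a probe were averaged, and the level was log2 processed signal minus that of the array's 75th percentile. Dim values, those not well above background, were set to the lowest well-measured level of their array where they lay below it. Probes were tested if well above background on 50% of the arrays of either side, with limma 3.58.1 in R 4.3.3 (data.table, version 1.17.8), and called at a Benjamini-Hochberg adjusted p under 0.05 over all probes tested. A gene stands for its probe with the highest mean level. Python 3.11.15 with pandas 2.3.3, numpy 2.4.6 and matplotlib 3.10.9 made the other tables and plots.

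Diets were paired by the time point their labels share. Deviations from the diet means of paired arrays correlated at −0.281 to 0.670 for HFC with LFC, 0.231 to 0.885 for HF5, −0.258 to 0.615 for HF20 and −0.0582 to 0.572 for HF75 with HFC, over 22348 probes. In all, 5 animals of a group were killed every 3 weeks per the labels, and the series text names 3 biological replicates per diet, whereas the labels give 1 array per diet and time point. How many mice contributed to each array is therefore unknown, and p-values measure the spread between these arrays. The fits were tested on simulated data, of which no result is given here.

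The 7 genes, the 6 pathway lists (46 genes on the array) and the 12 marker lists (83 genes) were chosen with earlier results of these data known. Of those lists, up to 5 genes past the threshold per list and comparison were eligible to be named. Alternatives were normexp with offset 50, quantile and median scaling, no filter, no raising, other probe choices, array weights, left-out time points and diets, same-slide and same-day pairs, and random blocks. The least saturated probes, same-day pairs, left-out diets and random blocks were added after the data were seen. A result for the pathway lists in HF75 is not reported here.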

Additional observations from a re-analysis of the deposited data

Results flagged for a closer look

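Among the 5 HF75 arrays the level of Slc27a4 (log2 above the array's 75th percentile) was −2.32 at week 12, above the other 4, of which the nearest read −3.35. The gap took up 0.900 of the range, past Dixon's critical value for 5 arrays. It was 1 of 31 groups tested this way, and chance alone singles out about 1 group in 20.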

How the results depend on the processing

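Counts of called genes kept to within 1.5 times the planned count in 139 results under alternatives and moved in 10. Normexp background correction gave 1 gene, Acsl1, in the late minus early HFC effect. For HF75 against HFC, array weights gave 1 gene, Slc27a4. For WS against weeks 6 and 15, no filter on dim probes gave 1 gene, array weights gave 5 among 13084 probes, and slide as a random block gave 0. Leaving out a time point or diet gave 0 to 5 there, and omitting week 9 could not be fitted. The cause of these changes was not tested. Of single genes, 986 values kept their side of the threshold, 11 passed it newly, 11 no longer passed it and 0 reversed.

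Across alternatives Slc27a1 in WS ranged from 1.91 to 2.53 and passed in 10 of 15, and Acsl1 from 2.23 to 3.70 and passed in 9 of 15. The Acsl1 range mixes probes, since 3.70 is the least saturated probe. The brightest, at 2.64 as planned, was saturated on all 4 WS arrays and has no exact fold. Acsl1 in HF20 ranged from 1.56 to 3.53 and Slc27a4 in HF75 from −1.33 to −0.77. With no replicate block, that is without the time points paired, 0 genes were called for every diet. Called probes went from 295 to 239 with normexp for HF75, of which 96.7% were higher against 80.0% as planned, and from 2226 to 486 with normexp for WS. Normexp moved the median of all probes to −0.30, −0.40 and −0.24 for HF5, HF20 and HF75, to −0.22 over time and to 0.21 for WS. Median scaling moved it to 0.30 for WS and 0.18 over time, and quantile scaling to 0.25 over time. Same-slide pairs were not run for HF20 and HF75, which had 0. Signal over background (median 4.86, range 1.53 to 55.4) limits dim probes.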

Other observations

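The 2 week 18 arrays with conflicting HF20 and HF75 labels belong to no diet here. The first read −0.85 for Acsl1, −0.91 for Slc27a1, 1.51 for Cd36, −0.30 for Lpl, 0.55 for Fabp4 and −3.01 for Fabp5, on the least saturated probes, with no value for Slc27a4. The second read −0.72 for Acsl1, 0.73 for Slc27a1, 3.85 for Cd36, 2.92 for Lpl, 3.62 for Fabp4, −1.07 for Fabp5 and −1.92 for Slc27a4. The first array carried 21710 outlier spots, with 96.3% of its probes well above background. Its adipocyte markers summed to 4.11 and those of the second to 7.87.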
